A study of Mus musculus with 10 samples.

Results

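Postsynaptic scaffolds and synaptic adhesion proteins were examined in the forebrain of newborn mice that lack the neuronal RNA-binding proteins Elavl3 and Elavl4. The genes were taken by symbol. A row of the expression table entered if the platform annotation gave it exactly 1 gene symbol and that symbol began with Dlg or Cntn followed by a digit, or with Dlgap, Shank, Homer, Nlgn, Lrrtm, Camk2, Slitrk, Lrrc4, Nptx, Lrfn, Flrt, Syngap or Cntnap, or was Gphn. That gave 48 rows for 42 genes of the 13534 genes with such a row, and the brightest row stood for each gene. Members of these families without such a row are not analysed here, among them the neuroligins other than Nlgn2 and the Shank and Homer genes other than Shank1, Shank3 and Homer1. By name alone the rule also took 6 genes that belong to no synaptic family listed here: Dlgap5, a gene of the mitotic spindle, and Lrrc42, Lrrc43, Lrrc46, Lrrc47 and Lrrc49. The genes Camk2g and Cntnap2 shared their rows with other genes and were left out.

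Whole-transcript arrays measured total RNA from 10 pups at postnatal day 0. The 5 double knockout animals were Elavl3-/-;Elavl4-/-, and the 5 controls were wild-type. All came from a mixed stock of C57BL/6 and CD-1, and forebrain was taken as a whole, with its neurons, glia, vessels and progenitors together. The labels give no cell-type restriction of the alleles. In whole tissue, fewer cells of a type and less RNA per cell cannot be told apart. Replicate numbers only name an animal. All values are log2 expression, so a difference of 1 is a doubling, and each difference is double knockout minus wild-type.

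At an excitatory synapse, receptors in the dendritic spine are held by a layered scaffold. MAGUK proteins of the Dlg family bind receptors and adhesion proteins, Dlgap proteins bind the MAGUKs, Shank proteins bind Dlgap, and Homer ties Shank to metabotropic receptors. CaMKII is the abundant kinase of this scaffold. Inhibitory synapses use gephyrin instead. Across the cleft, neuroligins and leucine-rich repeat proteins on the dendrite bind neurexins, LAR-type phosphatases, netrin-G proteins or latrophilins on the axon. Around birth most forebrain synapses have yet to form, and many of these genes are still on the way to their adult levels. Elavl3 and Elavl4 bind U-rich elements in neuronal transcripts and affect their splicing, stability and translation.

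The targeted genes separated the groups in every animal. Elavl3 measured 5.53, 5.89, 5.76, 6.02 and 6.94 in double knockout forebrains, against 11.28, 11.16, 10.52, 11.21 and 11.39 in wild-type forebrains. Elavl4 ran from 5.88 to 6.49 in the double knockout and from 7.42 to 7.69 in the wild-type. Array medians lay between 5.05 and 5.24. Wild-type replicate 4 stood apart from all other arrays: it correlated with them at 0.933 to 0.946 over all rows, while pairs among the other arrays reached 0.958 or more. For many genes the difference without this array is given beside that over all arrays.

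No synaptic gene differed between the genotypes beyond the threshold. In limma's test over all 65529 rows, 0 of the 42 genes had a Benjamini-Hochberg adjusted p under 0.05, and their adjusted p-values ran from 0.809 to 0.998. Of all rows measured, 5 passed (0.00763%), or between 1 and 6 when single arrays were left out. At an unadjusted p under 0.05 there was 1 of 42 genes, Lrrtm3, against 6.17% of all rows and 2.14% of the brightest rows of all genes. In 0 of 42 genes did the 5 double knockout values lie wholly on one side of the 5 wild-type values, against 0.968% of all genes.

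The intervals show how large a change in array signal these arrays leave room for. How far the signal follows the RNA was not tested, and the row of the targeted gene Elavl4 differed by -1.32. The variances behind the intervals were moderated over all rows, most of which carry no symbol. With only the brightest row per gene fitted, limma's unadjusted p-values of the 42 genes were lower, as 0.038 against 0.096 for Dlg5. Their adjusted p-values in that fit were 0.812 or more. A change beyond 1.5-fold in either direction was outside the 95% interval for 40 of the 42 genes, against 91.1% of all genes, and a change beyond 2-fold was outside it for all 42. The exceptions at 1.5-fold were Lrrtm3 and Slitrk6. In a dim row little signal may be left to compare, so a narrow interval there does not bound the RNA. Lrrtm4 averaged 3.14 in the double knockout and 3.13 in the wild-type, below the array medians of 5.05 to 5.24. Lrrc43, at 5.38 and 5.48, lay little above those medians. A difference smaller than 0.1 was found for 29 genes and smaller than 0.2 for 38, against 59.1% and 88.4% of all genes. The median difference was 0.004 over the 42 genes and -0.03 over all genes. Of the 42 genes 22 lay above 0, a share to be set beside 39.4% of all genes, and after quantile normalization 16 of 42 lay above 0 against 32.4% of all genes. The genes varied between animals as much as others did, with a median residual SD of 0.158 against 0.156 over all genes.

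**Figure D1:**
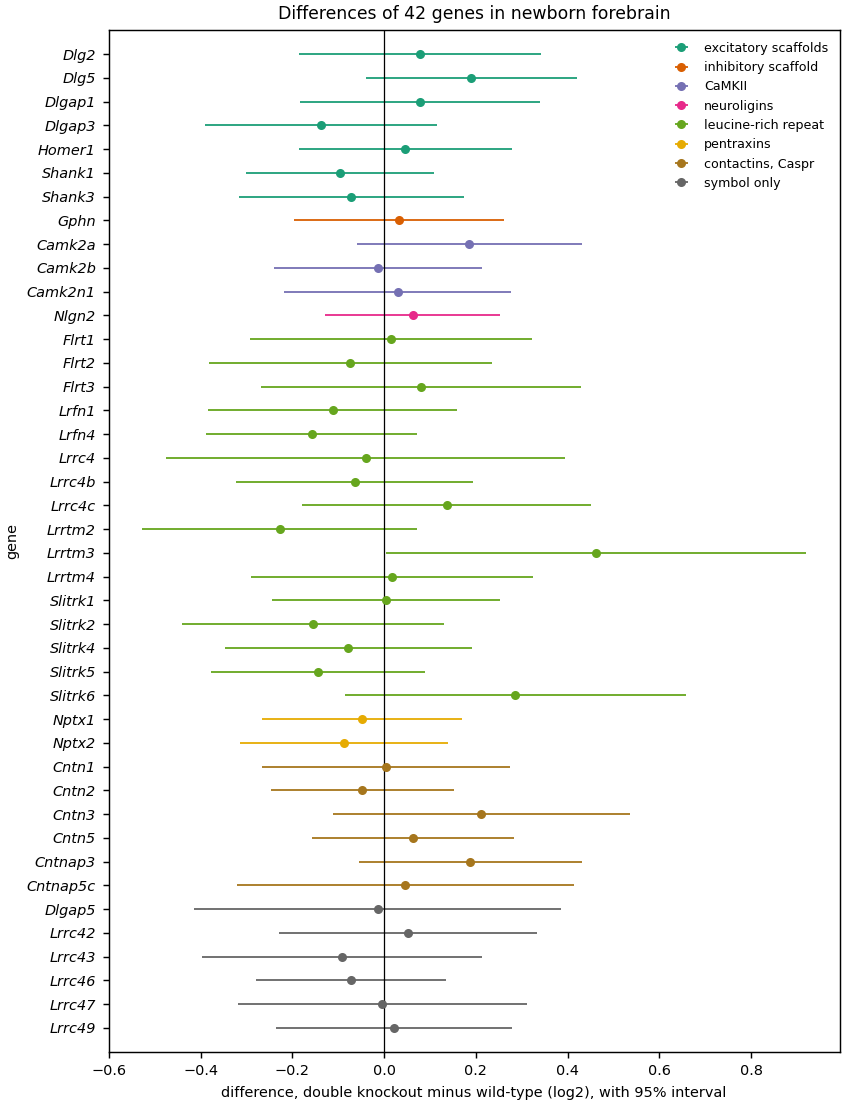
Difference of each of the 42 genes (double knockout minus wild-type, log2) with limma's 95% interval, 5 arrays a group, in blocks by role. The interval of Lrrtm3 lies above 0 from 0.004 to 0.92 at an unadjusted p, and all other intervals cross 0.

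Scaffolds of excitatory synapses were represented by 7 genes, 4 above 0 and 3 below, with differences from -0.14 to 0.19. None passed the test. Dlg5, a MAGUK of cell junctions and polarity, had the largest difference of the group. It measured 9.86, 9.88, 9.90, 10.00 and 9.99 in double knockout forebrains, against 9.82, 9.72, 9.81, 9.47 and 9.86 in wild-type forebrains. The lowest double knockout value equalled the highest wild-type value, so the groups touched at 9.86 without crossing. The means were 9.93 ± 0.06 in the double knockout and 9.74 ± 0.16 in the wild-type (SD, n = 5 each). The difference of 0.19 had a 95% interval of -0.04 to 0.42 and limma's adjusted p was 0.839. The two-sided exact permutation p was 0.0159, the lowest of the 42 genes and not adjusted for their number. The smallest p that 5 animals against 5 can give is 0.00794. Dlg5 was picked for its small limma p in these same values, so the permutation p is not separate support. The same holds for the permutation p-values given below for Lrrtm3, Lrfn4 and Cntnap3, which are not adjusted either. The low value of 9.47 was that of wild-type replicate 4, and without that array the difference was 0.12.

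The scaffold proper showed smaller differences. Dlg2, a MAGUK of the postsynaptic density, averaged 9.57 ± 0.06 in double knockout and 9.49 ± 0.22 in wild-type forebrain (SD, n = 5 each). Dlgap1, the partner of the MAGUKs, averaged 9.07 ± 0.04 in double knockout and 8.99 ± 0.22 in wild-type forebrain (SD, n = 5 each). For both genes the difference was 0.078, and without wild-type replicate 4 it was -0.017 for Dlg2 and -0.018 for Dlgap1. Homer1 differed by 0.046, and by 0.011 without that array. Shank1 and Shank3, the scaffold's deepest layer, differed by -0.096 and -0.072. The difference of Dlgap3 was -0.14 over all arrays and -0.077 when wild-type replicate 4 was left out. A second, dimmer row named Dlgap1 differed by -0.25 (95% interval -0.78 to 0.27), with the opposite sign to the brightest row.

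Gphn, which encodes the gephyrin scaffold that anchors GABA-A and glycine receptors, did not separate the genotypes. It measured 8.85, 8.70, 8.79, 8.83 and 8.88 in double knockout forebrains, against 8.87, 8.82, 8.91, 8.52 and 8.77 in wild-type forebrains. The difference was 0.032 (95% interval -0.20 to 0.26, limma's adjusted p = 0.968), and it was -0.033 without wild-type replicate 4, the lowest of the 10 arrays. Its dimmer row differed by -0.17 (95% interval -0.47 to 0.13).

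Nlgn2, the neuroligin of inhibitory synapses, was the steadiest of the genes given here in full. It measured 9.67, 9.82, 9.80, 9.74 and 9.80 in double knockout forebrains, against 9.75, 9.63, 9.69, 9.72 and 9.73 in wild-type forebrains. All 10 values lay within 0.19 of each other and the groups overlapped. The difference of 0.062 (95% interval -0.13 to 0.25) had an adjusted p of 0.920 in limma's test.

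CaMKII genes gave no call. Camk2a encodes the alpha subunit of the kinase, whose transcript climbs steeply after birth. It measured 8.82, 9.09, 8.91, 9.08 and 9.08 in double knockout forebrains, against 8.84, 8.93, 8.97, 8.58 and 8.73 in wild-type forebrains. Of the double knockout animals replicates 2, 4 and 5 lay above every wild-type animal, and replicates 1 and 3 lay among them. Means were 9.00 ± 0.12 in the double knockout and 8.81 ± 0.16 in the wild-type (SD, n = 5 each). The difference of 0.19 had a 95% interval of -0.06 to 0.43, limma's adjusted p was 0.844 and the exact permutation p was 0.0873. It was 0.13 without wild-type replicate 4, the lowest of the 10 arrays. The beta subunit gene Camk2b differed by -0.014 (95% interval -0.24 to 0.21), and by -0.032 without that array. The brightest row of Camk2n1, an inhibitor of the kinase, differed by 0.030, or 0.0015 without that array, and its dimmer rows by -0.11 and -0.074.

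**Figure D2:**
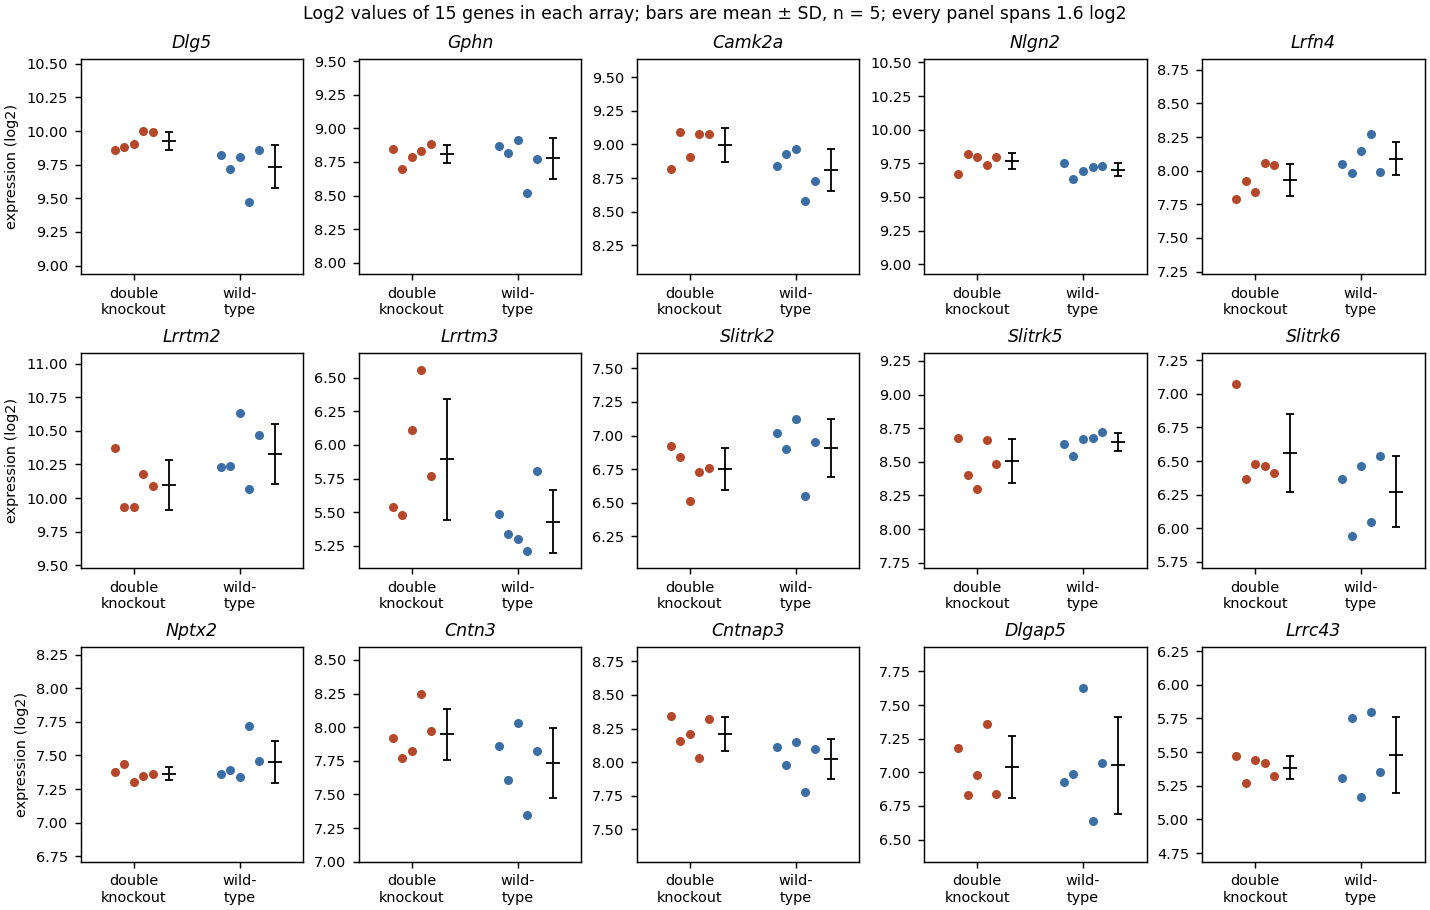
Log2 values of the 15 genes described in full, 1 point per array, double knockout left and wild-type right, with the mean and SD (n = 5) beside the points. Every panel spans the same 1.6 log2; in Dlg5 the groups meet at 9.86, and Lrrtm3, Slitrk6 and Dlgap5 have the widest ranges.

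Leucine-rich repeat adhesion genes were the largest group, with 16 genes. Of these 7 lay above 0 and 9 below, with a median of -0.052, and none passed. The group held the largest differences of either sign, Lrrtm3 at 0.46 and Lrrtm2 at -0.23.

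Lrrtm2 encodes a postsynaptic partner of neurexins that promotes excitatory synapses. It measured 10.37, 9.93, 9.93, 10.18 and 10.09 in double knockout forebrains, against 10.23, 10.24, 10.63, 10.07 and 10.47 in wild-type forebrains. Of the double knockout animals replicates 2 and 3 lay below every wild-type animal, and replicate 1 lay above wild-type replicates 1, 2 and 4. The means were 10.10 ± 0.19 in the double knockout and 10.33 ± 0.22 in the wild-type (SD, n = 5 each). The difference of -0.23 had a 95% interval of -0.53 to 0.07, with limma's adjusted p = 0.843 and an exact permutation p of 0.119. Leaving out single arrays gave -0.30 to -0.15, the smaller size without wild-type replicate 3, which had the highest value of all.

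The row named Lrrtm3 is uncertain. Its identifier lies among rows of X chromosome genes, whereas the gene table places Lrrtm3 on chromosome 10. It measured 5.54, 5.48, 6.11, 6.56 and 5.77 in double knockout forebrains, against 5.49, 5.34, 5.30, 5.21 and 5.81 in wild-type forebrains. Double knockout replicates 3 and 4 were the high ones, and the other animals of both genotypes lay together at 5.81 or less. The difference of 0.46 (95% interval 0.004 to 0.92) had an unadjusted p of 0.0485 and an adjusted p of 0.809 in limma's test, and the exact permutation p was 0.0794. Without double knockout replicate 4 the difference was 0.30. Lrrtm4 differed by 0.018, or 0.10 without wild-type replicate 4, in a row dimmer than all but 7.90% of the table, where little signal may be left to compare.

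Slitrk genes encode adhesion proteins that bind LAR-type phosphatases of the axon. Of the 5 measured, Slitrk1 and Slitrk6 lay above 0 and Slitrk2, Slitrk4 and Slitrk5 below. Slitrk6 measured 7.07, 6.37, 6.48, 6.46 and 6.41 in double knockout forebrains, against 6.37, 5.94, 6.46, 6.05 and 6.54 in wild-type forebrains. Double knockout replicate 1 stood alone above the rest, and wild-type replicates 2 and 4 stood below. The difference was 0.29 (95% interval -0.09 to 0.66, limma's adjusted p = 0.842), and without double knockout replicate 1 it was 0.16.

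Slitrk5 ran the other way. It measured 8.68, 8.40, 8.30, 8.66 and 8.48 in double knockout forebrains, against 8.63, 8.54, 8.67, 8.68 and 8.72 in wild-type forebrains. Double knockout replicates 2, 3 and 5 lay below all wild-type animals and replicates 1 and 4 among them. The difference was -0.14 (95% interval -0.38 to 0.09, limma's adjusted p = 0.865), and without double knockout replicate 3, the lowest of the 10 arrays, it was -0.093. The X-linked Slitrk2 measured 6.92, 6.84, 6.51, 6.73 and 6.76 in double knockout forebrains, against 7.02, 6.90, 7.12, 6.55 and 6.95 in wild-type forebrains. Its groups overlapped, with wild-type replicate 4 at 6.55 close to the lowest double knockout value of 6.51. The difference was -0.16 (95% interval -0.44 to 0.13, limma's adjusted p = 0.875), and without that replicate it was -0.25. It was -0.096 without double knockout replicate 3 and -0.10 without wild-type replicate 3. Slitrk1 differed by 0.004 and Slitrk4 by -0.078, and without wild-type replicate 4 they differed by -0.031 and -0.12.

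Lrfn genes encode adhesion proteins that bind the Dlg scaffold through their tails. Lrfn4 measured 7.79, 7.92, 7.84, 8.06 and 8.04 in double knockout forebrains, against 8.05, 7.98, 8.15, 8.27 and 7.99 in wild-type forebrains. Double knockout replicates 1, 2 and 3 lay below all wild-type values, while replicates 4 and 5 lay among them. The difference was -0.16 (95% interval -0.39 to 0.07), with limma's adjusted p = 0.856 and an exact permutation p of 0.0873. Without wild-type replicate 4, which had the highest value at 8.27, the difference of Lrfn4 was -0.11. Lrfn1 differed by -0.11.

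Lrrc4, Lrrc4b, Lrrc4c and the Flrt genes had differences between -0.074 and 0.14. Lrrc4c, a ligand of netrin-G proteins, averaged 8.40 ± 0.25 in double knockout and 8.27 ± 0.19 in wild-type forebrain (SD, n = 5 each). Its difference of 0.14 was 0.062 without wild-type replicate 4. Lrrc4 differed by -0.040 and Lrrc4b by -0.064, and without that array by -0.14 and -0.033. Flrt1, Flrt2 and Flrt3, ligands of latrophilins and Unc5 receptors, differed by 0.016, -0.074 and 0.080. Without wild-type replicate 4 the difference was -0.086 for Flrt1 and -0.034 for Flrt2. The dimmer rows of Flrt1 and Flrt3 differed by 0.052 and 0.13, with the sign of the brightest rows.

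Neuronal pentraxins are secreted proteins that cluster AMPA receptors. Nptx2, whose transcript is induced by activity, measured 7.38, 7.44, 7.30, 7.35 and 7.36 in double knockout forebrains, against 7.36, 7.39, 7.34, 7.72 and 7.46 in wild-type forebrains. Wild-type replicate 4 was the high one and the other animals of both genotypes lay between 7.30 and 7.46. The difference was -0.088 (95% interval -0.31 to 0.14, limma's adjusted p = 0.902), and -0.022 without that array. Nptx1 differed by -0.048, and by -0.077 without it.

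Contactins and Caspr proteins are immunoglobulin-type and neurexin-like adhesion molecules of axons and synapses. Of the 6 measured, 5 lay above 0 and Cntn2 below, and none passed. Cntn3 measured 7.92, 7.77, 7.82, 8.25 and 7.97 in double knockout forebrains, against 7.86, 7.61, 8.03, 7.35 and 7.82 in wild-type forebrains. The groups overlapped broadly, with double knockout replicate 4 highest and wild-type replicate 4 lowest. The difference of 0.21 (95% interval -0.11 to 0.54, limma's adjusted p = 0.859) was 0.12 without wild-type replicate 4 and 0.14 without double knockout replicate 4.

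Cntnap3 came nearer to a separation. It measured 8.34, 8.16, 8.21, 8.03 and 8.32 in double knockout forebrains, against 8.11, 7.98, 8.15, 7.78 and 8.10 in wild-type forebrains. Every double knockout value but that of replicate 4 lay above every wild-type value. The difference was 0.19 (95% interval -0.06 to 0.43), with limma's adjusted p = 0.842 and an exact permutation p of 0.0714, and it was 0.13 without wild-type replicate 4. Among the rest Cntn1 differed by 0.004, Cntn2 by -0.048, Cntn5 by 0.062 and Cntnap5c by 0.046. Without wild-type replicate 4 the difference was -0.088 for Cntn1 and 0.013 for Cntn5.

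The 6 genes taken by their symbols alone had differences from -0.092 to 0.052. Dlgap5, which dividing cells express, measured 7.18, 6.83, 6.98, 7.36 and 6.84 in double knockout forebrains, against 6.93, 6.99, 7.63, 6.64 and 7.07 in wild-type forebrains. Its range of 0.99 was due to wild-type replicates 3 and 4, the highest and the lowest array, and the difference was -0.014 (95% interval -0.41 to 0.39). Without wild-type replicate 3 it was 0.13, and without wild-type replicate 4 it was -0.12. Lrrc43 measured 5.47, 5.27, 5.44, 5.42 and 5.32 in double knockout forebrains, against 5.31, 5.75, 5.17, 5.80 and 5.35 in wild-type forebrains. Its wild-type values spanned the whole double knockout range, and the difference of -0.092 was -0.011 without wild-type replicate 4, -0.024 without wild-type replicate 2 and -0.17 without wild-type replicate 3. Without these 6 genes the median difference of the synaptic genes was 0.010.

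Within the larger role groups, animals of the same genotype differed by more than the genotype means did. For the 16 leucine-rich repeat genes the mean deviation from each gene's average over all arrays was 0.097, -0.15, -0.14, 0.14 and 0.044 in the double knockout animals, against -0.034, -0.099, 0.12, -0.10 and 0.12 in the wild-type animals. Both genotypes thus held animals near 0.1 and animals near -0.1. The same mean for the 7 excitatory scaffolds was -0.016, 0.024, -0.022, 0.021 and 0.023 in the double knockout animals, against 0.091, -0.044, 0.018, -0.16 and 0.060 in the wild-type animals. Here the wild-type animals spread more widely, with replicate 4 the lowest and the other 4 from -0.044 to 0.091. The median deviation of all genes moved only between -0.057 and 0.052 from array to array.

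**Figure D3:**
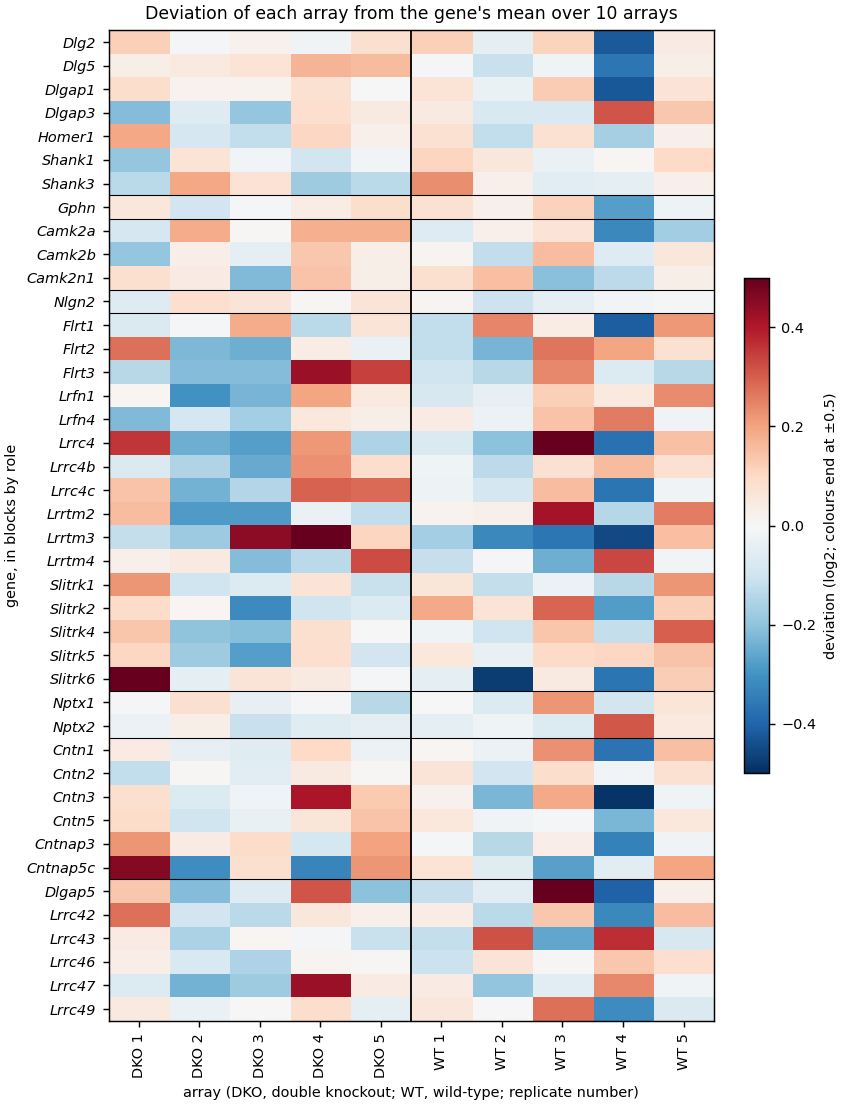
Deviation of each array from the gene's mean over 10 arrays (log2; red above, blue below, colours end at ±0.5), genes in blocks by role, double knockout arrays left of the line and wild-type arrays right. Wild-type replicate 4 is mostly blue, and it was the lowest array for 18 of the 42 genes.

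Wild-type replicate 4 weighed on many of these genes in the same direction. It was the lowest of the 10 arrays for 18 of the 42 genes, against 22.5% of all genes, and the highest for 6 of 42, against 25.5% of all genes. The 18 included Dlg2, Dlg5, Dlgap1 and Homer1 among the scaffolds, Gphn, Camk2a, and Cntn1, Cntn3, Cntn5 and Cntnap3 among the contactins and Caspr genes. The contactin and Caspr group had a mean deviation of 0.13, -0.079, -0.00033, 0.033 and 0.11 in the double knockout animals, against 0.035, -0.095, 0.043, -0.25 and 0.073 in the wild-type animals. Without this array 15 of 42 genes lay above 0, with a median of -0.031 against -0.027 for all genes. What set this array apart was not tested.

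**Figure D4:**
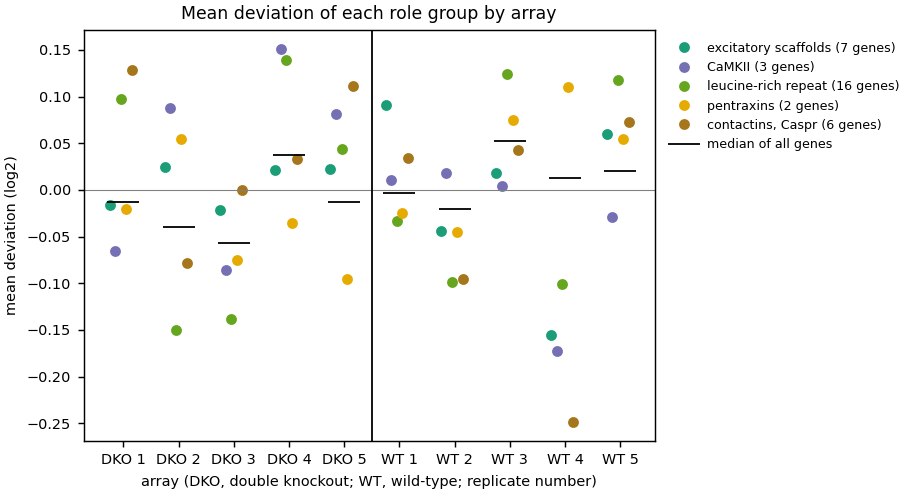
Mean deviation (log2) in each array of the role groups with more than 1 gene. The genes taken by their symbols alone are not shown. The median of all genes is a bar, with double knockout left of the line and wild-type right. The leucine-rich repeat genes range from -0.15 to 0.14 within the double knockout, and wild-type replicate 4 has the lowest contactin and Caspr mean at -0.25.

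Partners across the synapse gave no call either. Of 20 listed presynaptic partners 11 were measured, 5 above 0 and 6 below, with a median of -0.010, and none passed the adjusted threshold or an unadjusted p of 0.05. The neurexin gene Nrxn3, the partner of Lrrtm2 and the neuroligins, averaged 9.97 ± 0.14 in double knockout and 9.72 ± 0.18 in wild-type forebrain (SD, n = 5 each; difference 0.24, limma's adjusted p = 0.824). Gpc4, a glypican that binds Lrrtm4, differed by 0.23 and the calsyntenin Clstn3 by -0.11. Of 30 further postsynaptic genes 14 were measured, 8 above 0 and 6 below, with a median of 0.041 that was -0.018 without wild-type replicate 4. None of them passed. Il1rapl1, an adhesion receptor of excitatory synapses, differed by 0.28, the receptor anchor Grip2 by -0.15 and the kainate receptor auxiliary subunit Neto1 by 0.11 (limma's adjusted p = 0.835, 0.847 and 0.884), and Neto1 by 0.047 without that array.

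Cell-type markers were read beside these values. The mean level of 6 of 8 listed pan-neuronal genes ran from 10.48 to 10.69 in the double knockout, against 10.41 to 10.68 in the wild-type, so the levels overlapped. The row named Tubb3 among them lies among rows of another chromosome, as the Lrrtm3 row does, so its name is uncertain. The other 5 ran from 10.63 to 10.71 in the double knockout, against 10.52 to 10.79 in the wild-type. The mean of 4 of 6 listed astrocyte genes ran from 7.02 to 7.15 in the double knockout, against 7.18 to 7.33 in the wild-type, without overlap. All 4 astrocyte genes lay below 0, by -0.25 to -0.14, and none passed. Most genes lay below 0, with 39.4% of all genes above it. Only 1 of the 4, Fgfr3, had groups without overlap by itself, against 0.968% of all genes. How often the mean of 4 other genes would separate the groups was not tested. The mean of 5 of 7 listed genes of radial glia and dividing cells ran from 8.40 to 8.65 in the double knockout, against 8.40 to 8.62 in the wild-type. The mean of the 3 measured choroid plexus genes ran from 5.98 to 8.19 in the double knockout, against 5.62 to 8.15 in the wild-type. Of these Ttr alone ran from 6.19 to 11.59 in the double knockout, against 5.91 to 11.49 in the wild-type. Oligodendrocyte lineage genes (2 measured) ran from 7.72 to 8.01 in the double knockout, against 7.87 to 8.11 in the wild-type. Microglial genes (4 measured) ran from 6.99 to 7.08 in the double knockout, against 6.89 to 7.23 in the wild-type, and endothelial genes (3 measured) from 7.86 to 8.11 in the double knockout, against 7.89 to 8.40 in the wild-type. The only red blood cell gene measured ran from 6.36 to 6.64 in the double knockout, against 6.46 to 6.84 in the wild-type. The part of these cell types in the values of the synaptic genes was not tested.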

How the data were processed

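Expression was measured on exon arrays, 1 per animal. The authors deposited log2 values made with RMA in Affymetrix Expression Console, and mm8 is the build named, per the submitters' processing notes; their versions and the summary level are not stated there. RMA and rounding to 2 decimals limit small differences. The number of arrays limits the precision. Detection calls were not used here. The table held 65529 rows, of which 15419 carried 1 symbol, and 0 columns of other samples.

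Symbols are those of the platform annotation. Chromosomes came from the RefSeq gene table of GRCm38.p6. A name was taken as out of place where its chromosome was not the most frequent among the 20 named rows on each side.

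Groups were compared by a linear model per row (limma 3.58.1 under R 4.3.3, lmFit followed by eBayes), genotype being the only term, without a filter. P-values were adjusted by Benjamini-Hochberg over all rows, two-sided. Genes given in full are Lrrtm2, Camk2a, the 10 with the smallest p, the largest difference of each role group and the 3 widest ranges. They are 15 in all. All 42 genes had an exact permutation test of the difference of means. For genes given in full without this permutation p, it ran from 0.103 (Slitrk5) to 0.960 (Dlgap5). From each pathway list the 3 smallest p-values are named. Genes, lists and tests were chosen with earlier results of these data known. The limma test was tested on simulated data. The labels number each animal separately. P-values of the main fit set a difference against the spread between animals, with variances moderated over all rows. Animals were taken as independent, although the study used littermates in pairs that the labels do not assign.

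Alternatives were quantile normalization, median centring, a filter on dim rows, fits of single-symbol rows only or of the brightest row per gene only, trended and robust eBayes, weights per array, the mean of a gene's rows, pairs by nearest animal number, and leaving out each array.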

Additional observations from a re-analysis of the deposited data

Results flagged for a closer look

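Among the 30 groups of 5 values examined (15 genes in each genotype), 1 held a value far from the other 4. Slitrk6 was 7.07 in double knockout replicate 1, while the other double knockout animals lay between 6.37 and 6.48, a gap of 0.843 of the group's range. In data without outliers, a gap past the critical value of 0.71 occurs in about 1 in 20 groups of 5. Slitrk6 was among the genes chosen for their wide range, so that rate does not describe it.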

How the results depend on the processing

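No synaptic gene passed under any of the alternatives run, and the lowest adjusted p of a gene given in full was 0.645 (Lrrtm3 without wild-type replicate 1). Of 285 values of these 15 genes under alternatives, 277 kept their sign and 8 changed it. Gphn was -0.00049 with array weights, -0.068 as the mean of its rows and -0.0079 after quantile normalization, and -0.033 to 0.065 with single arrays left out. Dlgap5 was -0.12 to 0.13 with single arrays left out. For 10 of the 15 the difference moved by over 1.5 times without some array. The number of genes with an unadjusted p under 0.05 was 0 with median centring, 0 with array weights, 2 with only single-symbol rows and 2 with only the brightest rows (Dlg5 and Lrrtm3), and 0 to 1 with single arrays left out. Where the count was 1, the gene was Lrrtm2 after quantile normalization, Dlg5 with trended and robust eBayes, Slitrk2 without wild-type replicate 4 and Lrrtm3 under the other settings. The filter on dim rows removed Lrrtm4. Groups without overlap were 0 to 1 with single arrays left out: Dlg5 without double knockout replicate 1 or wild-type replicate 5, and Cntnap3 without double knockout replicate 4. The median difference stayed between -0.031 and 0.023.

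With a replicate block that pairs animals by nearest number, 0 of the 42 genes passed, 0 had an unadjusted p under 0.05 and 2 rows of the whole table passed. Paired animals' deviations from their group means correlated at -0.068, 0.173, 0.355, 0.194 and 0.242 over all genes. Except in the pair at -0.068, the paired wild-type animal correlated best of all wild-type animals with its double knockout animal. As 1 pair lay below 0.1, the limit set for use of the numbers, they were not taken as pairs in the main fit. Within these pairs Shank1, Lrfn4 and Slitrk5, 3 of the 42 genes, had the same sign in all 5, against 9.41% of all genes, a count added after seeing the data.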

Other observations

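The study used littermates in pairs, which the labels do not assign. Set beside each other by nearest animal number, the mean deviations of the 16 leucine-rich repeat genes were 0.14 in double knockout replicate 4 and 0.12 in wild-type replicate 3, and 0.097 in double knockout replicate 1 and 0.12 in wild-type replicate 5. They were -0.14 in double knockout replicate 3 and -0.099 in wild-type replicate 2, and -0.15 in double knockout replicate 2 and -0.034 in wild-type replicate 1. In these 4 pairs both animals had the same sign, and in the remaining pair the values were 0.044 in double knockout replicate 5 and -0.10 in wild-type replicate 4. In other role groups fewer pairs had the same sign. The excitatory scaffolds were at -0.016 in double knockout replicate 1 and 0.060 in wild-type replicate 5. The contactin and Caspr group was at -0.079 in double knockout replicate 2 and 0.035 in wild-type replicate 1. In both groups the pair with wild-type replicate 4 also differed in sign, and the remaining pairs did not. This arrangement was looked at after the values were seen and was not tested.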
